A study of Homo sapiens with 6 samples.

Results

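The genes described here are 10 regulators of the G1 phase of the cell cycle: the D-type cyclins CCND2 and CCND3, the E-type cyclins CCNE1 and CCNE2, the kinases CDK4 and CDK6, the kinase inhibitors CDKN1B (p27) and CDKN2C (p18), the pocket protein RB1 and the transcription factor E2F1. They were taken by symbol from the deposited count table, which held a row for each of the 10 among its 56638 rows, and all 10 passed the filter on low counts that left 13490 genes to test. The cells were MOLM-13, a line from a human monocytic leukaemia, known for its KMT2A-MLLT3 fusion. In the UC-764864 group (3 libraries: UDI0051, UDI0052 and UDI0053) the cells had been given 2 µM of that compound, which the series title calls a UBE2N inhibitor, and in the DMSO group (UDI0054, UDI0055 and UDI0056) the solvent, and RNA of both was taken after 24 h. The comparison asks which transcripts differed between those groups. It rests on a single cell line, dose and time, and nothing in the labels tells whether separate cultures lie behind the 3 libraries. The p-values therefore measure the spread between these libraries alone, which may be technical.

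In G1, D-type cyclins bind CDK4 or CDK6 and E-type cyclins bind CDK2, and these kinases phosphorylate RB1. Unphosphorylated RB1 holds E2F factors inactive, and its phosphorylation frees them to switch on CCNE1, E2F1 and genes of DNA replication. INK4 inhibitors such as CDKN2C bind CDK4 and CDK6, while CDKN1B binds whole cyclin-CDK complexes and is itself removed through ubiquitination. CDK6 and the D-type cyclins are known as drivers of growth in leukaemias with KMT2A fusions. In a bulk sample, fewer cells in a phase of the cycle and less RNA per cell cannot be told apart.

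Total counts ranged from 17073654 to 25014437 in the UC-764864 libraries and from 16136156 to 24511499 in the DMSO libraries. In DMSO library UDI0055, 3799 rows stand at 0 in 2 unbroken runs of the table and were read as missing, and none of the 10 genes lies in them. UDI0052 and UDI0056 held the smallest shares of counts in genes of at least 60% GC (8.31% and 8.47%, against 10.0% to 11.6% in the others). Genes of under 40% GC deviated most in UDI0056, where their median was 0.43 above the 6-library mean on the log2 scale, and in UDI0051, where it was −0.27. The summed level of 10 myeloid markers was 6310 to 7320 CPM (each count relative to its library's total, after TMM scaling) with UC-764864 and 4040 to 4290 CPM with DMSO. Of 9 markers tested, 1 was higher and 3 were lower (edgeR adjusted p under 0.05), against 5.11% and 8.13% of all genes tested. Markers of other lineages at 0 in every library included the B cell gene MS4A1, the erythroid genes HBA1 and HBA2 and the epithelial gene KRT19. The 6 erythroid markers, 3 of them at 0 throughout, summed to 18.3 to 25.1 CPM with UC-764864 and 21.9 to 25.2 CPM with DMSO. The 7 stromal and epithelial markers, 1 of them at 0 throughout, summed to 18.8 to 20.4 CPM with UC-764864 and 19.1 to 22.8 CPM with DMSO. The 6 lymphoid markers summed to 32.6 to 45.3 CPM with UC-764864 and 49.1 to 56.8 CPM with DMSO, and the part of any of these markers in the results below was not tested.

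Of the 10 G1 genes, CDKN1B and RB1, 2 brakes on the G1 to S transition, fell after UC-764864, and 0 rose (edgeR quasi-likelihood test, Benjamini-Hochberg adjusted p under 0.05). Among all genes tested, 8.13% were called lower and 5.11% higher. Of tested genes under 40% GC, which include RB1, 22.8% were called lower. A further brake among the 10, CDKN2C, did not pass (log2 fold change 0.01, edgeR adjusted p = 0.963). At an unadjusted p under 0.05, 2 of the 10 were higher and 4 lower, against 14.9% and 16.6% of all genes. DESeq2 called 1 higher and 4 lower, against 6.35% and 10.2% of all genes. The 3 libraries of a group did not overlap with those of the other for 5 of the 10: CCNE1 and E2F1 were higher in each UC-764864 library than in any DMSO library, and CDK6, CDKN1B and RB1 were lower. Of all genes tested, 19% lacked overlap in the higher and 17% in the lower direction, 36.1% in all. The median log2 fold change of the 10 was −0.08, with 5 above and 5 below 0, against a median of 0.01 over all genes.

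**Figure D1:**
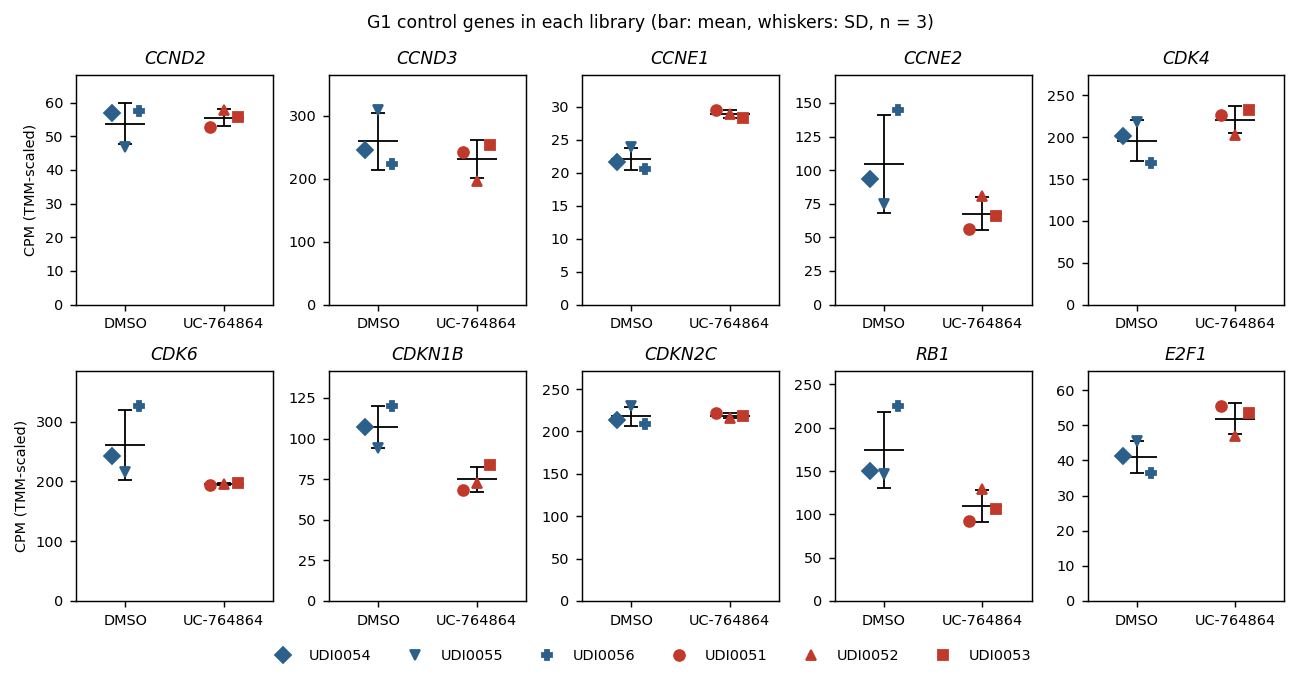
Level of each G1 gene in each library, in CPM scaled by TMM factors, with DMSO libraries on the left in blue and UC-764864 libraries on the right in red; bars are means and whiskers SD (n = 3 per group), and each axis starts at 0. CDKN1B and RB1 lie lower in every UC-764864 library, CCNE1 and E2F1 lie higher, and UDI0056 is the highest library for CCNE2, CDK6 and RB1.

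RB1, the pocket protein that restrains E2F factors, stood at 92.6, 129 and 106 CPM in UDI0051, UDI0052 and UDI0053 and at 150, 147 and 225 CPM in UDI0054, UDI0055 and UDI0056. All UC-764864 libraries were below all DMSO libraries, and the DMSO library UDI0056 was far above the others. The means were 109 ± 18.2 and 174 ± 44.2 CPM (SD, n = 3), a log2 fold change of −0.67 ± 0.18 (SE, edgeR adjusted p = 0.0313), or 1.59-fold lower. The RB1 call was lost without UDI0051 (−0.56, edgeR adjusted p = 0.137), UDI0053 (−0.65, 0.1) or UDI0054 (−0.77, 0.0585), and with the rows missing from UDI0055 kept as zeros (−0.69, 0.102). Without UDI0056 it held at a smaller −0.44 (edgeR adjusted p = 0.0408). With each library's GC trend removed, the RB1 fold change was −0.31 ± 0.08 (edgeR adjusted p = 0.00999).

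CDKN1B, the inhibitor of cyclin E and CDK2, was at 68.3, 72.9 and 83.5 CPM in the UC-764864 libraries and at 107, 94.4 and 120 CPM in the DMSO libraries. The groups were apart, and no single library stood far from its own group. Its level went from 107 ± 12.8 to 74.9 ± 7.8 CPM (SD, n = 3), a log2 fold change of −0.52 ± 0.13 (SE, edgeR adjusted p = 0.0256), or 1.43-fold lower. The CDKN1B call was lost without UDI0051 (adjusted p = 0.146), UDI0052 (0.0532), UDI0053 (0.0523) or UDI0054 (0.0884) and with the missing rows kept as zeros (0.068), while the fold change stayed between −0.60 and −0.43 without any 1 library. With the GC trend removed it was −0.61 (edgeR adjusted p = 0.000858).

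CDKN2C, the INK4 inhibitor p18, was at 222, 216 and 218 CPM after UC-764864 and at 214, 230 and 209 CPM after DMSO. The groups overlapped fully. Its log2 fold change was 0.01 ± 0.10 (SE, edgeR adjusted p = 0.963), with a 95% interval from −0.22 to 0.23. Its INK4 relatives CDKN2A and CDKN2B had 0 counts in all 6 libraries, which allows up to 3 counts, or 0.123 to 0.198 CPM, for counting error only.

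Of the D-type cyclins, CCND2 was at 52.8, 57.9 and 55.7 CPM after UC-764864 and 56.9, 46.8 and 57.5 CPM after DMSO. CCND3, the more abundant transcript, was at 242, 197 and 254 CPM against 245, 310 and 223 CPM. Both pairs of groups overlapped, with the DMSO library UDI0055 lowest for CCND2 and highest for CCND3. The log2 fold changes were 0.05 ± 0.12 for CCND2 and −0.17 ± 0.15 for CCND3 (SE, edgeR adjusted p = 0.826 and 0.456), with 95% intervals from −0.22 to 0.31 and from −0.49 to 0.15. CCND3 passed as lower only with the GC trend removed, at −0.24 (edgeR adjusted p = 0.0466). In GENCODE v29, CCND2 shares 989 bases of exon with AC008012.1, a gene on the same strand that had no row of that name. Any effect of this overlap on the CCND2 counts was not tested.

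Their partner kinases differed in direction, and neither passed. CDK4 was at 227, 203 and 233 CPM after UC-764864 and at 201, 218 and 169 CPM after DMSO, overlapping groups with a log2 fold change of 0.17 ± 0.12 (SE, edgeR adjusted p = 0.364). CDK6 was at 194, 195 and 198 CPM after UC-764864 and at 242, 215 and 326 CPM after DMSO. The UC-764864 libraries lay close together and below every DMSO library, among which UDI0056 was far the highest. The CDK6 log2 fold change was −0.42 ± 0.15 (SE, edgeR adjusted p = 0.0783). It was −0.22 without UDI0056 and −0.18 with the GC trend removed (edgeR adjusted p = 0.242 and 0.124), and it passed without UDI0055 at −0.54 (adjusted p = 0.0157). CDK4 shares 1369 bases of exon with the antisense gene TSPAN31 in GENCODE v29, and since the use of strand in counting is not given in the sources used here, its reads and those of TSPAN31 (279 to 461 counts) may not be fully separated.

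The E-type cyclins, which activate CDK2, also differed in sign, and neither passed. CCNE1 was at 29.6, 29 and 28.4 CPM after UC-764864 and at 21.7, 24.0 and 20.6 CPM after DMSO. The groups did not overlap and the UC-764864 libraries were nearly equal. The CCNE1 log2 fold change was 0.39 ± 0.12 (SE), with a 95% interval from 0.13 to 0.65, and it missed the threshold narrowly (edgeR adjusted p = 0.0524). It passed with DESeq2 (adjusted p = 0.0402), without UDI0055 (edgeR adjusted p = 0.026) and after removal of the GC trend (0.0184). CCNE2 was at 56.3, 80.4 and 65.9 CPM after UC-764864 and at 93.1, 75.1 and 145 CPM after DMSO. These groups overlapped at UDI0052 and UDI0055, and UDI0056 was far above the rest. The CCNE2 log2 fold change was −0.63 ± 0.22 (SE, edgeR adjusted p = 0.0726), and it was −0.32 without UDI0056 and −0.23 with the GC trend removed (adjusted p = 0.171 and 0.104). CCNE2 passed without UDI0055 at −0.82 (edgeR adjusted p = 0.0136), without UDI0052 and UDI0056 at −0.49 (0.0258), with no filter at −0.64 (0.000187) and with DESeq2 at −0.65 (adjusted p = 0.0272). CCNE2 is also uncertain because it shares 1629 bases of exon with the antisense gene INTS8, whose row held 3180 to 4572 counts per library.

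E2F1, the factor released from RB1, was at 55.5, 46.9 and 53.4 CPM after UC-764864 and at 41.3, 45.5 and 36.3 CPM after DMSO. Every UC-764864 library was above every DMSO library, though UDI0052 and UDI0055 lay close together. The E2F1 log2 fold change was 0.34 ± 0.13 (SE), with a 95% interval from 0.06 to 0.62, short of the threshold (edgeR adjusted p = 0.097). Leaving out UDI0055 gave 0.42 (edgeR adjusted p = 0.0413), and removing the GC trend gave 0.39 (0.00241).

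**Figure D2:**
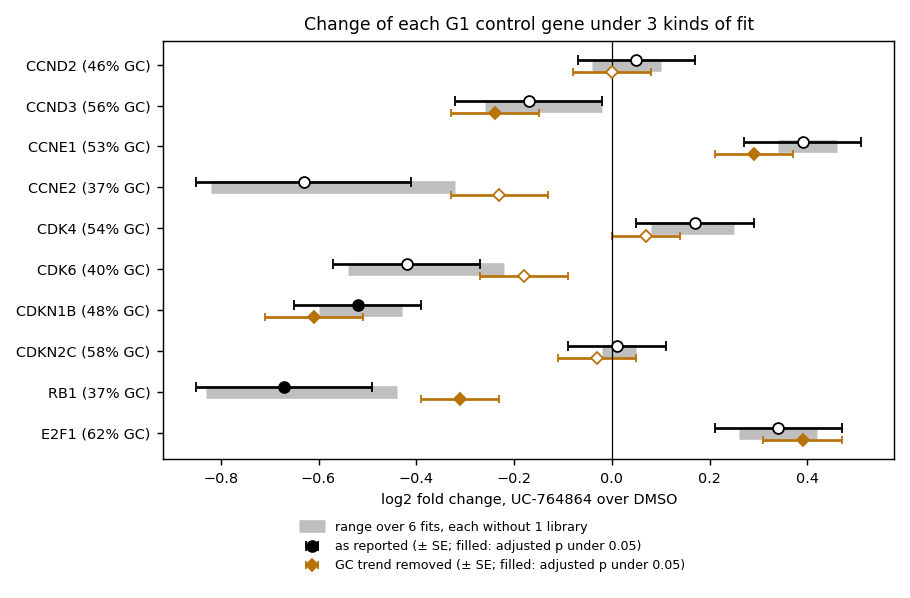
Log2 fold change of each G1 gene, UC-764864 over DMSO, with its SE as reported (circles), with each library's GC trend removed (diamonds) and as a grey range over 6 fits that each leave out 1 library; filled symbols passed an adjusted p of 0.05, and each gene's GC percentage stands beside its name. RB1, CCNE2 and CDK6, the genes of lowest GC, moved furthest towards 0 when the trend was removed, to −0.31, −0.23 and −0.18, and CDKN1B, CCNE1 and E2F1 stayed near their reported values.

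The position of RB1, CCNE2 and CDK6 can be read beside that of other GC-poor genes. Their longest GENCODE v29 transcripts hold 37.3%, 36.9% and 39.5% GC, and they are the 3 of the 10 genes under 40%. All 1839 tested genes in that band had a median log2 fold change of −0.32, and 22.8% of them were called lower. In the bands of 40 to 50%, 50 to 60% and 60% and over, the medians were 0.05, 0.14 and 0.00, and 6.31%, 4.72% and 6.58% were called lower. CDKN1B lies in the 40 to 50% band. With the trend removed, the G1 genes called were CDKN1B, RB1 and CCND3 as lower and CCNE1 and E2F1 as higher, but that fit also called far more genes in all, 13.6% lower and 19.8% higher. Rises made up 59.3% of its calls, against 38.6% as reported and 28.6% when libraries were scaled by size alone.

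The number of G1 genes called changed with the setting, and so did the share of all genes. Scaling by RLE factors left CDKN1B and RB1 lower, where 8.61% of genes were lower and 4.49% higher, as did scaling by library size (9.42% and 3.77%). Without the filter on low counts CCNE2 and CDK6 joined them (6.89% lower, 3.4% higher), and DESeq2 added CCNE1 as higher (shares as above). With the rows missing from UDI0055 kept as zeros, 0 of the 10 passed (0.891% lower, 0.157% higher). Leaving out UDI0055 gave 4 lower and 2 higher, CCNE1 and E2F1 (12.6% lower, 11.1% higher). Leaving out UDI0056 kept CDKN1B and RB1 (6.62% lower, 3.71% higher), and leaving out UDI0052 kept RB1 (6.79% lower, 2.12% higher). With UDI0052 and UDI0056 both left out, CCNE2, CDKN1B and RB1 were lower (8.98% lower, 4.07% higher). None of the 10 passed without UDI0051 (2.03% lower, 0.452% higher), UDI0053 (3.31% lower, 1.19% higher) or UDI0054 (3.49% lower, 0.69% higher).

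A ratio of 2 genes within a library does not depend on that library's scaling. The log2 ratio of CCNE1 to CCNE2 counts was −0.93, −1.47 and −1.21 after UC-764864 and −2.10, −1.65 and −2.82 after DMSO. All UC-764864 libraries were above all DMSO libraries, and the means differed by 0.99 (exact permutation test over libraries, two-sided p = 0.1, adjusted p = 0.15 over 3 pairs). The log2 ratio of CDK4 to CDK6 was 0.22, 0.06 and 0.24 after UC-764864 and −0.27, 0.02 and −0.95 after DMSO, again without overlap, a difference of 0.57 (exact permutation p = 0.1, adjusted p = 0.15). With 3 libraries against 3, 0.1 is the smallest p this test can give. For CCND2 to CCND3 the ratios were −2.19, −1.76 and −2.19 against −2.10, −2.73 and −1.96, which overlapped (difference 0.21, exact permutation p = 0.6). The difference was −0.02 without UDI0055 and 0.07 without UDI0052. CCNE2 and CDK6 are the GC-poor genes of their pairs. With the GC trend removed, the log2 fold changes were 0.29 for CCNE1 and −0.23 for CCNE2, and 0.07 for CDK4 and −0.18 for CDK6.

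**Figure D3:**
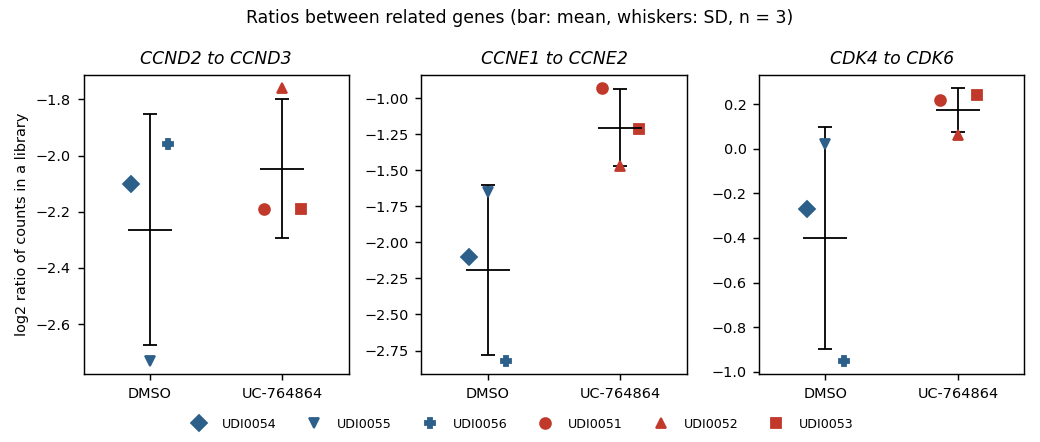
Log2 ratio of the counts of 2 related genes in each library, with means and SD (n = 3 per group); the vertical axes differ and do not start at 0. The CCNE1 to CCNE2 and CDK4 to CDK6 ratios are higher in all UC-764864 libraries than in any DMSO library, with UDI0056 the lowest in both, and the CCND2 to CCND3 ratio overlaps between groups.

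Levels of different genes were compared per kilobase of exon (RPKM, CPM divided by the GENCODE v29 exon length, which may differ from the annotation used for counting). After DMSO, CDKN2C at 65.6 ± 3.28 and CDK4 at 61.9 ± 7.83 RPKM (SD, n = 3) were the most abundant and did not differ beyond their spread, followed by CCND3 at 44.7 ± 7.8 and CDKN1B at 38.2 ± 4.54. RB1 at 26.9 ± 6.85, CCNE2 at 23.8 ± 8.32 and CDK6 at 21.3 ± 4.74 lay within each other's spread, and E2F1 at 16.4 ± 1.84 came next. CCNE1 at 8.66 ± 0.68 and CCND2 at 7.51 ± 0.838 were the lowest. After UC-764864 the order was CDK4 at 69.7 ± 5.09, CDKN2C at 65.9 ± 0.933, CCND3 at 39.8 ± 5.17 and CDKN1B at 26.6 ± 2.77 RPKM. The mean of E2F1, 20.7 ± 1.8, came next, followed by RB1 at 16.9 ± 2.82, CDK6 at 16 ± 0.152 and CCNE2 at 15.4 ± 2.76, whose means were above that of E2F1 in DMSO. E2F1 and RB1 lay within each other's spread after UC-764864, as did CDK4 and CDKN2C, and after DMSO so did CCND3 and CDKN1B. Single libraries broke these orders. In UDI0052 E2F1 (18.7 RPKM) was below RB1 (19.9), and CDK4 (63.9) was below CDKN2C (65.2). In UDI0055 E2F1 (18.2) was above CDK6 (17.5) and CCNE2 (17.1), and in UDI0056 CDKN1B (42.7) was above CCND3 (38.5). CCNE1 at 11.4 ± 0.233 and CCND2 at 7.75 ± 0.358 RPKM remained the lowest. Per kilobase, CCND3 was the main D-type cyclin transcript in both groups, and CDK4 exceeded CDK6. Before division by length, mean levels after DMSO were 196 CPM for CDK4 and 261 CPM for CDK6. After UC-764864 they were 221 and 196 CPM. The third D-type gene, CCND1, stood at 0.251 ± 0.0765 RPKM with UC-764864 and 0.368 ± 0.0479 RPKM with DMSO.

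The E2F1 promoter is shown because E2F factors act on their own genes through such sequences, and E2F1 was the only G1 gene of the 8 with a promoter entry to hold an E2F match. The window is RefSeq's (GRCh38.p14, chr20:33686336-33686635, minus strand), from 250 bases before to 50 bases after the start. Capitals mark matches, on either strand, to the E2F words TTTCCCGC, TTTGGCGC, TTTCGCGC and TTTGCCGC, which begin at −33 and −20 here.
E2F1: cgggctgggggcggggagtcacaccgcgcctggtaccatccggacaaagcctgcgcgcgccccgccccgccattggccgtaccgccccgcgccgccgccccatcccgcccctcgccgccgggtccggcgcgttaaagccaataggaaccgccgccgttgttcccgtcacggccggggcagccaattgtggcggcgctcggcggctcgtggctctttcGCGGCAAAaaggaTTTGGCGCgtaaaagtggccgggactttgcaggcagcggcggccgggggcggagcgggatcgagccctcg
One of these words was found in 3.31% of all 35116 promoter windows of this length. A match is a description of letters and not of a bound site, and CCNE1, CDK4, CDK6, CDKN1B, CDKN2C, CCND3 and RB1 had none in their windows.

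Other parts of the G1 machinery were read from lists chosen with earlier results of these data known. As reported, 5.11% of all genes were called higher and 8.13% lower. Of 10 other G1 and S cyclins, kinases and activators, 1 rose and 0 fell: CDC25A, the phosphatase that activates CDK2, went from 47.2 ± 2.21 to 64.0 ± 1.47 CPM (SD, n = 3), a log2 fold change of 0.44 ± 0.11 (edgeR adjusted p = 0.0256). CDK2 and CCNA2, named after their values were seen, did not pass, at 0.09 and −0.19. At an unadjusted p under 0.05, 2 of these 10 were higher and 0 lower, against 14.9% and 16.6% of all genes. DESeq2 called 1 higher and 0 lower, against 6.35% and 10.2% of all genes. Of the other CDK inhibitors, 3 of 5 had enough counts to test and 0 passed (0 higher and 1 lower at an unadjusted p under 0.05 and by DESeq2). CDKN1A (p21) came closest, at 232 ± 17.6 CPM after DMSO and 176 ± 20.9 CPM after UC-764864 (−0.40 ± 0.12, edgeR adjusted p = 0.052), and it passed in 8 of the 13 alternative fits. CDC25A lost its call without UDI0051, UDI0052, UDI0053 or UDI0054 (edgeR adjusted p = 0.118, 0.0702, 0.0939 and 0.0989), at log2 fold changes of 0.39 to 0.45. The CDC25A call was also lost with every row as deposited (0.41, edgeR adjusted p = 0.065).

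Among 17 other E2F, DP, pocket and MuvB genes, 0 passed in either direction, with a median of 0.11 and 12 above 0. Of all genes, 5.11% were called higher and 8.13% lower. At an unadjusted p under 0.05 the counts were 4 higher and 1 lower, against 14.9% and 16.6% of all genes. DESeq2 called 1 higher and 0 lower, against 6.35% and 10.2% of all genes. E2F4, a repressor-type E2F that works with RBL1 and RBL2, had the smallest p, at 91.0 ± 16.2 CPM after DMSO and 125 ± 17.7 CPM after UC-764864 (0.46 ± 0.15, edgeR adjusted p = 0.0642). The RB1 relatives RBL1 and RBL2, named after their values were seen, lay at 0.08 ± 0.12 and 0.07 ± 0.12 on the log2 scale (edgeR adjusted p = 0.684 and 0.701). Of 16 ubiquitin ligase parts that act on G1 regulators, 1 rose and 0 fell: DDB1, the adaptor of CUL4 ligases, went from 307 ± 44.5 to 423 ± 15.0 CPM (0.46 ± 0.12, edgeR adjusted p = 0.0313). SKP2, the ubiquitin ligase subunit that marks CDKN1B for destruction, was at 0.10 ± 0.11 (adjusted p = 0.574), and its cofactor CKS1B at 0.20 ± 0.12 (adjusted p = 0.295), both chosen after their values were seen. At an unadjusted p under 0.05, 3 of the 16 were higher and 2 lower, and DESeq2 called 1 higher and 1 lower (shares of all genes as above). The DDB1 call was lost without each library in turn other than UDI0055 (edgeR adjusted p = 0.148, 0.0635, 0.0911, 0.126 and 0.0579 without UDI0051, UDI0052, UDI0053, UDI0054 and UDI0056), at log2 fold changes of 0.38 to 0.48. It was also lost with every row as deposited (0.44, edgeR adjusted p = 0.0899) and with UDI0052 and UDI0056 both left out (0.37, 0.0538).

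Of 22 tested E2F target genes of S phase, 5 rose and 0 fell, 22.7% against 5.11% of all genes, and 20 were above 0, with a median of 0.26. MCM6 and MCM3, subunits of the replicative helicase, rose by 0.40 ± 0.11 and 0.39 ± 0.11 (SE, edgeR adjusted p = 0.0342 and 0.0369). POLA2, the accessory subunit of DNA polymerase alpha, rose by 0.50 ± 0.14, from 48.2 ± 9.33 to 68.5 ± 2.43 CPM (adjusted p = 0.0386). The other two, CDC45 and GINS2, partners of the same helicase and named after their values were seen, rose by 0.40 and 0.41 (adjusted p = 0.0446 and 0.0426). DESeq2 called 7 higher and 0 lower, against 6.35% and 10.2% of all genes. By unadjusted p under 0.05, 10 were higher and 0 lower, against 14.9% and 16.6% of all genes. The number that rose was 3 with RLE factors (4.49% of all genes rose) or no filter (3.4%) and 1 with library size only (3.77%). It was 0 with every row as deposited (0.157%) and 12 with the GC trend removed (19.8%). With UDI0051, UDI0052, UDI0053 or UDI0054 left out, 0 of the 22 passed (0.452%, 2.12%, 1.19% and 0.69% of all genes rose). With UDI0056 left out 1 rose (3.71%), as with UDI0052 and UDI0056 left out together (4.07%). With UDI0055 left out 10 rose (11.1%). In the fits without UDI0051, UDI0052, UDI0053 or UDI0054 the log2 fold changes were 0.30 to 0.45 for MCM6, 0.36 to 0.42 for MCM3 and 0.45 to 0.52 for POLA2.

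The promoter stretches of 40 bases below each show an E2F word, in the CDC25A window and in those of 4 of the 5 target genes that rose, given on the strand of the gene with matches in capitals. Coordinates are RefSeq's on GRCh38.p14. The windows of MCM6, at −90 and −86, and of MCM3, at −4, held further E2F words that these stretches do not show.
CDC25A, chr3:48188438-48188477, minus strand: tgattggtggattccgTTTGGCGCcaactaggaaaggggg
MCM6, chr2:135876572-135876611, minus strand: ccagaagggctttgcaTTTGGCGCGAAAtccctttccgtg
MCM3, chr6:52284893-52284932, minus strand: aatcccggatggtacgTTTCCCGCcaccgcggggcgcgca
POLA2, chr11:65261893-65261932, plus strand: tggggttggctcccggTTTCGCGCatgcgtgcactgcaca
GINS2, chr16:85688962-85689001, minus strand: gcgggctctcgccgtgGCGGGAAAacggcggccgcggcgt
Such a word was found in 13 of the 20 target genes with a window, a list chosen as E2F targets. Of those with a word, CDC6, CDT1, GINS1, MCM2, MCM7, PCNA, TYMS and UHRF1 were tested and not called, and POLA1 was not tested. Across all tested genes with a window, 6.4% of the 594 with a match and 5.56% of the 8115 without one were called higher, with median log2 fold changes of 0.07 and 0.02.

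Of 13 transcription factors known to act on G1 genes, 2 rose and 1 fell, against 5.11% and 8.13% of all genes. MYC, which drives CDK4 and cyclin genes, went from 509 ± 78.1 to 691 ± 58.5 CPM (0.44 ± 0.13, edgeR adjusted p = 0.0437). KMT2A, whose row can also hold reads of the fusion transcript, went from 40.5 ± 2.57 to 54.2 ± 0.509 CPM (0.42 ± 0.11, adjusted p = 0.0314). FOXO3, an activator of CDKN1B, fell from 63.2 ± 2.92 to 48.9 ± 1.66 CPM (−0.37 ± 0.11, adjusted p = 0.0463). Its relative FOXO1, named after its value was seen, was at −0.17 ± 0.26 (adjusted p = 0.688). Any part of FOXO3 in the level of CDKN1B was not tested. All 3 calls were lost without UDI0051, UDI0052, UDI0053 or UDI0054 (edgeR adjusted p from 0.0529 to 0.238), and MYC and FOXO3 also without UDI0056 (0.0865 and 0.0811). In the fits without UDI0051 to UDI0054 the log2 fold changes were 0.39 to 0.48 for MYC, 0.38 to 0.42 for KMT2A and −0.42 to −0.34 for FOXO3. With every row as deposited all 3 calls were lost (edgeR adjusted p = 0.119 for MYC, 0.0724 for KMT2A and 0.072 for FOXO3). MYC also missed the threshold with library size only (edgeR adjusted p = 0.0543) and FOXO3 with no filter (0.0626). At an unadjusted p under 0.05, 3 of the 13 were higher and 2 lower, against 14.9% and 16.6% of all genes. DESeq2 called 2 higher and 1 lower, against 6.35% and 10.2% of all genes.

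**Figure D4:**
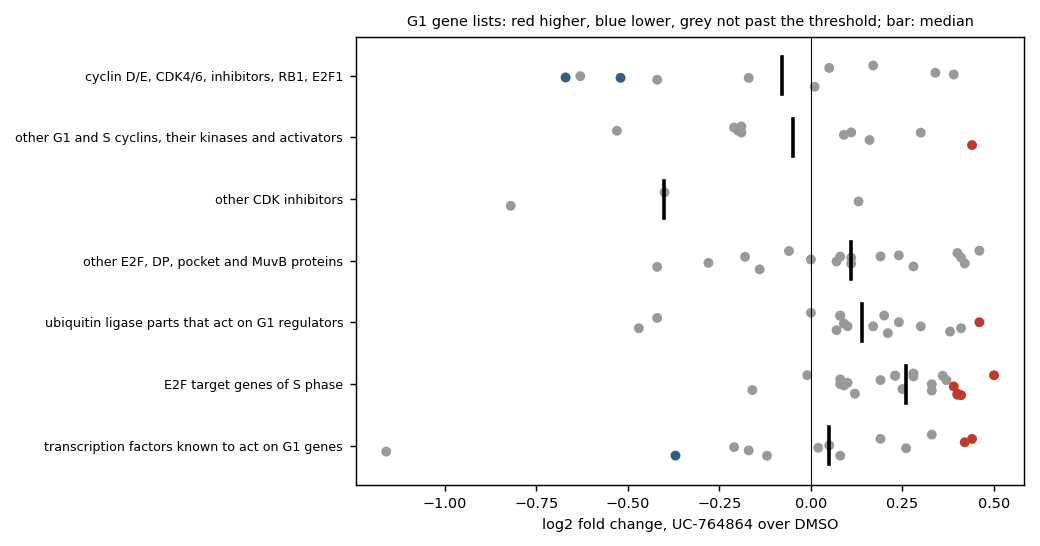
Log2 fold change of each tested gene, UC-764864 over DMSO, in the 10 G1 genes (top) and 6 further lists; red points were called higher, blue lower and grey neither (edgeR adjusted p under 0.05), black bars are medians, and vertical scatter within a row has no meaning. Most S phase E2F targets lie to the right of 0, 5 of them called, while the 10 G1 genes spread to both sides.

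The CDK4 promoter is shown because it carries the MYC-type E-box, CACGTG, at more than 1 place, marked in capitals and beginning at −216, −196 and −101 (GRCh38.p14, chr12:57752261-57752560, minus strand). CACGTG reads the same on both strands.
CDK4: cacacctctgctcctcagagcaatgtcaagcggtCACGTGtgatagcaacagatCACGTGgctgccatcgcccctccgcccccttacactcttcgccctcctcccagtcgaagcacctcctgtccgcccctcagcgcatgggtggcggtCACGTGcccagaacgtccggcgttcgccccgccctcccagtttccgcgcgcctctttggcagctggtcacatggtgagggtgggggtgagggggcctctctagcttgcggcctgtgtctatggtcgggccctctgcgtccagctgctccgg
Among all windows 7.26% held the E-box, and of the G1 genes CDK4, CDK6 and CDKN2C did. Their log2 fold changes were 0.17, −0.42 and 0.01, and none of these 3 passed (edgeR adjusted p = 0.364, 0.0783 and 0.963). Any part of MYC in their levels was not tested. Of 1125 tested genes with an E-box, 6.13% were called higher, and of 7584 without one, 5.54%.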

How the data were processed

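The 6 RNA libraries were sequenced in pairs of 75 bp reads, per the labels. For each gene symbol the authors deposited a raw count, with no normalization. The submitters' processing notes name GRCh37, HISAT2 2.0.5, featureCounts 1.5.2 and FastQC 0.11.7, without roles. Annotation release and strand setting: not given in the sources used here. Treatments of the columns came from the deposited metadata.

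Runs of at least 100 rows at 0 in 1 library, with at least 10 rows of at least 50 counts in all others, were left out (3799 rows), leaving 52839. Counts were tested in R 4.3.3 with edgeR 4.0.16 (filterByExpr, TMM, glmQLFit, glmQLFTest, treatment as the only term), with Benjamini-Hochberg adjustment over 13490 genes. Each SE was the log2 fold change over the square root of edgeR's F. The GC fit took each gene's log2 CPM minus its mean over the libraries. Each library's spline (6 degrees of freedom) of these deviations on GC was added as an offset for 11647 genes. Ratios used a prior count of 0.5 (alternative: 2). All 15 library pairs differed by more than sampling noise (chi-square per degree of freedom 4.4 to 78.8). Members and lists were chosen with earlier results of these data known. Named genes are the 10 members and, per list, up to 3 called genes per direction by p, or else the gene of smallest p. Alternatives were DESeq2 1.42.0, RLE factors, library size only, no filter, every row as deposited, each library left out, UDI0052 and UDI0056 left out together, and the GC fit.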

Additional observations from a re-analysis of the deposited data

How the results depend on the processing

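No paired analysis was possible because the columns of the count table carry no replicate numbers. Across 13 alternative fits, CCNE1, E2F1 and CDK4 kept positive and CCND3, CCNE2, CDK6, CDKN1B and RB1 negative log2 fold changes. CCND2 and CDKN2C, which lie near 0, changed sign: CCND2 was at 0.00 with library size only, and CDKN2C at −0.02 with every row as deposited, −0.01 with RLE factors or DESeq2, −0.04 with library size only and with UDI0052 and UDI0056 left out, 0.00 with no filter and −0.03 with the GC trend removed. With 1 library left out, log2 fold changes ranged from −0.04 to 0.10 for CCND2 (−0.01 without UDI0052), from −0.02 to 0.05 for CDKN2C (−0.01 without UDI0052 and 0.00 without UDI0051 or UDI0054), from −0.26 to −0.02 for CCND3, from 0.34 to 0.46 for CCNE1, from −0.82 to −0.32 for CCNE2, from 0.08 to 0.25 for CDK4, from −0.54 to −0.22 for CDK6, from −0.60 to −0.43 for CDKN1B, from 0.26 to 0.42 for E2F1 and from −0.83 to −0.44 for RB1. Ratio differences then ranged from −0.02 to 0.37 (CCND2 to CCND3), 0.67 to 1.26 (CCNE1 to CCNE2) and 0.30 to 0.78 (CDK4 to CDK6).

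Calls lost with every row as deposited were CDKN1B at −0.54 and RB1 at −0.69. Calls gained were CCND3 at −0.24, CCNE1 at 0.29 and E2F1 at 0.39 with the GC trend removed, CCNE1 at 0.37, CCNE2 at −0.65 and CDK6 at −0.44 with DESeq2, CCNE2 at −0.64 and CDK6 at −0.42 with no filter, and CCNE2 at −0.49 without UDI0052 and UDI0056. The cause was not tested.

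Among the 10 G1 genes, 1 was called higher by DESeq2 (6.35% of all genes) and 2 after removal of the GC trend (19.8%). Called lower were 0 with every row as deposited (0.891%), 4 with no filter (6.89%) and 4 with DESeq2 (10.2%). With 1 library left out, 0 to 2 were higher (0.452% to 11.1% of all genes) and 0 to 4 lower (2.03% to 12.6%). Over all genes, 22 were higher and 125 lower with every row as deposited, 2305 were higher with the GC trend removed and 1676 lower with no filter, and with 1 library left out 62 to 1525 were higher and 278 to 1729 lower. In the 6 further lists together (84 genes as listed), 9 genes were higher and 1 lower as reported, against 5.11% and 8.13% of all genes tested. Of the 84, CDKN2A, CDKN2B and POLA1 were not tested. The higher count was 0 with every row as deposited (0.157% of all genes), 4 with library size only (3.77%) and 33 with the GC trend removed (19.8%). The lower count was 0 with every row as deposited (0.891%), 2 with RLE factors (8.61%) or library size only (9.42%), and 3 with no filter (6.89%) or DESeq2 (10.2%). It was 4 without UDI0052 and UDI0056 (8.98%) and 7 with the GC trend removed (13.6%). With 1 library left out the ranges were 0 to 22 (0.452% to 11.1%) and 0 to 4 (2.03% to 12.6%). The lowest count of any of the 10 G1 genes in a library was 312.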
